A study of Homo sapiens with 4 samples.

Results

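The ligands, receptors and latency proteins of transforming growth factor beta (TGF-beta) were examined in Hs683, an established human glioma cell line, on 4 Affymetrix expression arrays. Total RNA came from 2 samples carrying miR-20a and from 2 samples carrying a scrambled microRNA with no target (miR-NT). Cells of both groups also carried a knockdown of QK, the gene now named QKI, so that no array without the knockdown was part of the comparison. The labels state neither how QK was knocked down, nor whether the cells were 1 clone or a pool, nor how much miR-20a they held. The 10 genes were chosen by name, as 3 ligands (TGFB1, TGFB2, TGFB3), 3 receptors (TGFBR1, TGFBR2, TGFBR3), the co-receptor ENG and 3 latent TGF-beta binding proteins (LTBP1, LTBP2, LTBP3). They were 10 of the 17716 genes named in the value table, which listed 1 probe set, a group of short probes read together, for each of them.

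TGF-beta is made as a precursor whose cut-off propeptide stays wrapped around the mature ligand and keeps it inactive. Latent TGF-beta binding proteins attach this latent complex to the extracellular matrix, from which integrins or proteases release the ligand. The free ligand binds the type II receptor TGFBR2, which then phosphorylates the type I receptor TGFBR1. TGFBR1 in turn phosphorylates the receptor-activated SMAD proteins. In glioma, TGF-beta is known for effects on invasion, immune evasion and the maintenance of stem-like cells. MicroRNAs of the miR-17 family pair through their seed with messenger RNAs and lower their level or translation, and TGFBR2 is a published target of this family.

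The microRNA added to the cells is shown with its relatives because its seed, bases 2 to 8 and in capitals below, decides which transcripts it can pair with. The sequences are those of RefSeq on GRCh38.p14, written 5′ to 3′, and miR-20a-5p lies on the plus strand of chromosome 13 at chr13:91351072-91351094.
miR-20a-5p: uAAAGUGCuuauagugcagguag
miR-17-5p: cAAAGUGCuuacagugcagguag
miR-20b-5p: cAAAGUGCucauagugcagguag
miR-106a-5p: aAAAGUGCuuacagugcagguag
miR-106b-5p: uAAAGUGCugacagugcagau
miR-93-5p: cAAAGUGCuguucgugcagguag
miR-18a-5p: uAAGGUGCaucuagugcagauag
The first 6 of these share the seed, and miR-18a-5p, encoded near miR-20a on chromosome 13, carries a different one. Counted from the 5′ end of miR-20a-5p, miR-17-5p differs from it by U1C and U12C, both outside the seed, and miR-18a-5p differs within the seed by A4G. Of 2370 mature microRNA names in RefSeq, 8 carried the seed of miR-20a-5p, the other two being miR-519d-3p and miR-526b-3p. Seed matches in the transcripts of the 10 genes were not searched here.

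Values are log2 probe set signals. Since each probe set binds with its own strength, the levels below are compared between arrays for the same gene or list. Only the words dim and bright and the deciles place a gene's signal among others. They do not compare amounts of transcript between genes. A gene counted as dim when its mean over the 4 arrays was among the lowest 30% of all genes, which put the limit at 5.46, and 12401 genes above it were tested with limma. Of the 10 genes 7 were tested. TGFB3, TGFBR1 and TGFBR3 were dim, so that their fold changes are given without a call. A fold change is the mean of the miR-20a arrays minus the mean of the miR-NT arrays, and a call is an adjusted p under 0.05 (Benjamini-Hochberg over all 12401 genes).

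None of the 7 tested genes was called. Over all tested genes limma called 1, which was none of the 10 (0.00806%). At an unadjusted p under 0.05, limma gave 3 of the 7 as lower with miR-20a, TGFB1, TGFB2 and LTBP3, and 0 of the 7 as higher. Of all tested genes 13.2% were lower and 5.82% higher at that p. The miR-20a arrays were both lower than either miR-NT array in 4 of the 7 (TGFB1, TGFB2, ENG and LTBP3), against 31.1% of the tested genes. They were both higher in 1 of the 7, LTBP1, against 25.1%. The groups overlapped in TGFBR2 and LTBP2. The median log2 fold change was −0.20 over the 7 genes, 5 of them below 0 and 2 above, and −0.02 over all tested genes, 6668 of them below 0. Over all 10 genes, dim ones included, the median was −0.04, with 5 below 0 and 5 above. These counts describe 7 genes chosen by name and carry no test of the set. The plot of each gene on the 4 arrays shows the values behind them.

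**Figure D1:**
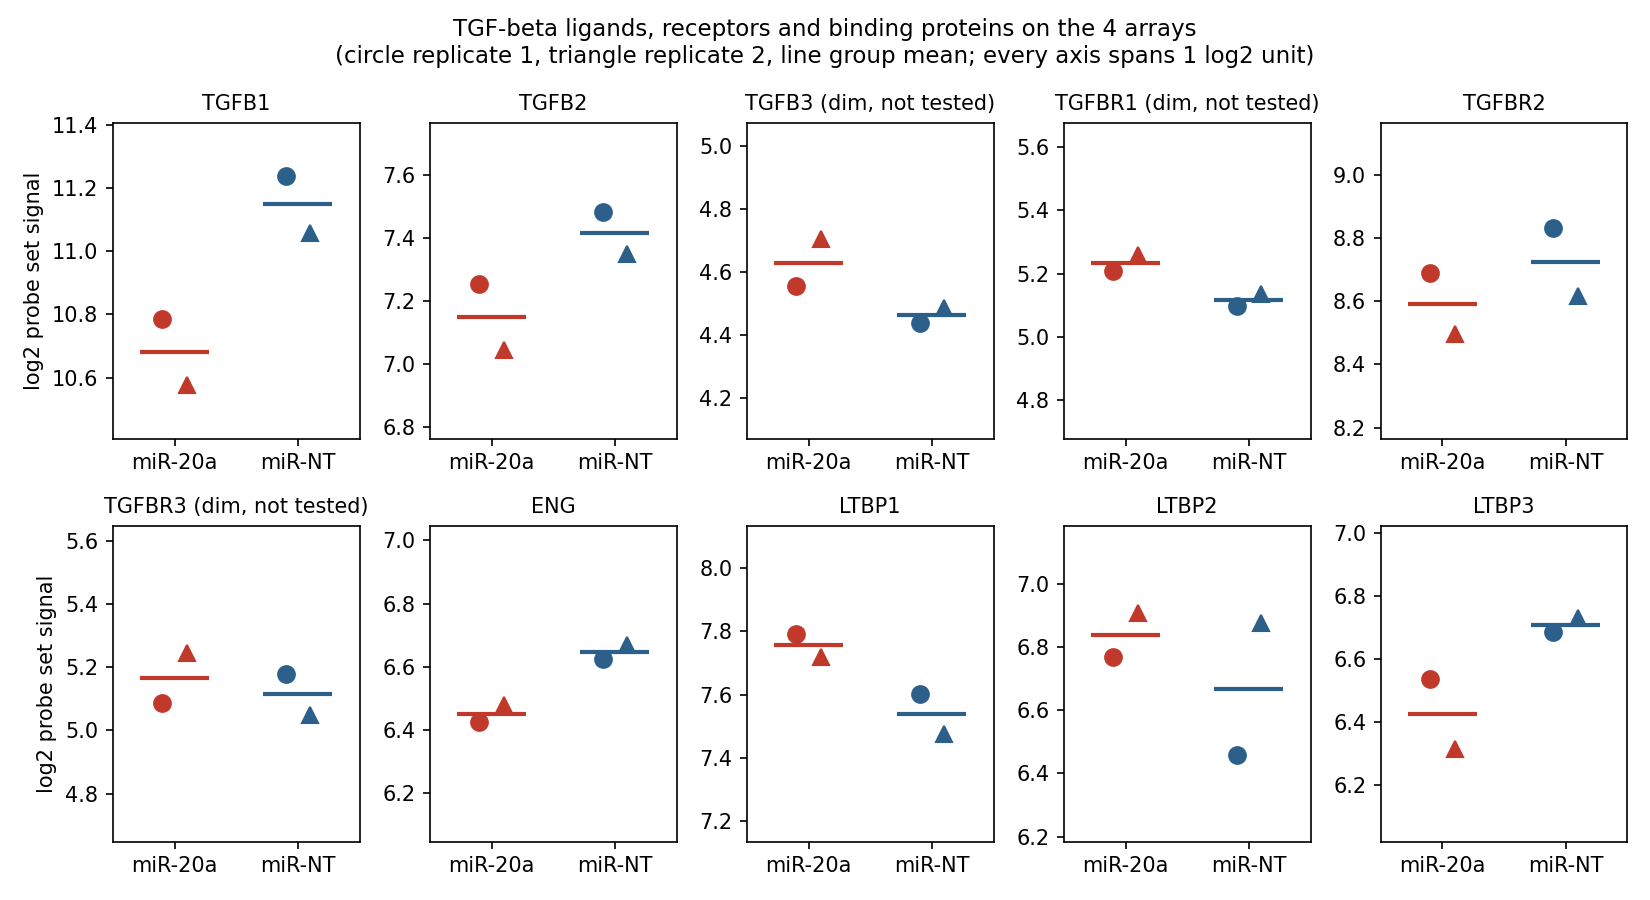
Log2 probe set signal (vertical axis) of each of the 10 genes with miR-20a (left) and miR-NT (right); circles are replicate 1, triangles replicate 2, lines group means of 2 arrays, and every vertical axis spans 1 log2 unit. The miR-20a points of TGFB1, TGFB2, ENG and LTBP3 lie below both miR-NT points, those of TGFB3, TGFBR1 and LTBP1 lie above them, and those of TGFBR2, TGFBR3 and LTBP2 overlap them.

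Among the ligands, TGFB1, the isoform most often studied in glioma and in immune suppression, measured 10.79 and 10.58 with miR-20a, against 11.24 and 11.06 with miR-NT. Both miR-20a arrays were lower than both miR-NT arrays, and the gap between the groups exceeded the spread within either pair. The log2 fold change was −0.47 (SE 0.12, 95% interval −0.74 to −0.19), or 1.38-fold lower, which did not pass over all genes (limma adjusted p = 0.135). It was the lowest fold change of the 7, and 4.35% of the tested genes had a fold change as low or lower. In bulk RNA, fewer cells that make a transcript and less of it per cell cannot be told apart.

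TGFB2, known from glioblastoma cells as a T-cell suppressor factor, measured 7.25 and 7.05 with miR-20a, against 7.48 and 7.35 with miR-NT. The groups did not overlap, but the lower miR-NT array stood only 0.10 above the higher miR-20a array, less than the 0.21 between the 2 miR-20a arrays. The log2 fold change was −0.27 (SE 0.11, 95% interval −0.53 to −0.002; limma adjusted p = 0.261). With miR-20a replicate 1 left out it was −0.37, and with replicate 2 of that group left out −0.16. TGFB3, the isoform best known from palate fusion and wound healing, was dim at 4.55 and 4.70 with miR-20a and at 4.44 and 4.48 with miR-NT. Its miR-20a arrays were both higher, by 0.17 on average, as were those of 30.5% of the dim genes.

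Of the receptors, TGFBR2, the type II receptor that binds the ligand first, measured 8.69 and 8.50 with miR-20a, against 8.83 and 8.62 with miR-NT. The groups overlapped, since replicate 1 with miR-20a was above replicate 2 with miR-NT. At −0.13 on the log2 scale (SE 0.12; limma adjusted p = 0.534) the difference was no larger than that between replicates, 0.19 with miR-20a and 0.22 with miR-NT. Its 95% interval, −0.41 to 0.15, reaches from lower to higher values. Of the tested genes 31.0% had a fold change as low or lower. Without miR-NT replicate 1 the fold change was −0.02, and without miR-NT replicate 2 it was −0.24.

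TGFBR1, the type I receptor kinase that phosphorylates SMAD2 and SMAD3, was dim at 5.21 and 5.26 with miR-20a and at 5.10 and 5.13 with miR-NT. Its values were higher on both miR-20a arrays, by a log2 difference of 0.12, as were those of 30.5% of the dim genes. TGFBR3, or betaglycan, which presents ligand to TGFBR2 and is needed most by TGF-beta2, was dim as well, at 5.09 and 5.24 with miR-20a and at 5.18 and 5.05 with miR-NT. Its groups overlapped, with a difference of 0.05. A fit that kept the dim genes gave limma adjusted p of 0.406 for TGFB3, 0.508 for TGFBR1 and 0.789 for TGFBR3.

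ENG, or endoglin, is a co-receptor best known from endothelial cells, where it modulates signalling by TGF-beta and by bone morphogenetic proteins. It measured 6.42 and 6.48 with miR-20a, against 6.62 and 6.67 with miR-NT. Replicates differed by 0.05 and 0.04, and the groups did not overlap. The log2 fold change was −0.20 (SE 0.10, 95% interval −0.42 to 0.03; limma adjusted p = 0.307), so that the groups differed by more than the replicates and still did not pass over all genes. Endothelial markers were checked beside it. Of 8 such genes 6 were dim on these arrays, CDH5, VWF, TEK, TIE1, CLDN5 and EMCN, and the mean level of the 8 was 4.901 and 5.136 on the miR-20a arrays and 4.96 and 4.995 on the miR-NT arrays. PECAM1 and ESAM were above the limit, with log2 fold changes of 0.30 and −0.09 that did not pass (limma adjusted p = 0.202 and 0.599).

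The latent TGF-beta binding proteins did not share a direction. LTBP1, which is secreted bound to the latent ligand, measured 7.79 and 7.72 with miR-20a, against 7.60 and 7.48 with miR-NT. Both miR-20a arrays were above both miR-NT arrays, with a log2 fold change of 0.22 (SE 0.10, 95% interval −0.02 to 0.45; limma adjusted p = 0.290). The groups stood 0.12 apart, less than the 0.13 between the miR-NT arrays. Of the tested genes 90.6% had a fold change as low or lower.

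LTBP3, which also carries latent TGF-beta and has a known role in bone and teeth, measured 6.54 and 6.31 with miR-20a, against 6.69 and 6.73 with miR-NT. Both miR-20a arrays were lower, and replicate 2 with miR-20a was the lowest of the 4. The groups stood 0.15 apart, less than the 0.22 between the miR-20a arrays. The log2 fold change was −0.28 (SE 0.11, 95% interval −0.54 to −0.02; limma adjusted p = 0.239). LTBP2, which unlike the other two does not bind latent TGF-beta and is known from elastic and microfibril matrix, measured 6.77 and 6.91 with miR-20a, against 6.46 and 6.87 with miR-NT. Its groups overlapped, and the miR-NT pair differed by 0.41, the widest gap between replicates among the 10 genes. The log2 fold change of 0.17 (SE 0.15; limma adjusted p = 0.512) rested on miR-NT replicate 1, without which it was −0.04.

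Leaving out 1 array at a time moved the fold changes. Without miR-20a replicate 1, TGFB1 was at −0.57 and LTBP3 at −0.39. Without miR-20a replicate 2, LTBP3 was at −0.17. Each such fit leaves 1 array in 1 group, so that the spread within that group is not measured. The number of all tested genes called varied widely between these fits, and calls of the 7 genes from them are not read here. TGFB1 ranged from −0.57 to −0.36 over the 4 such fits.

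The ACTB 5′ control, a probe set at the 5′ end of an abundant transcript whose signal drops when RNA is degraded or labelling is incomplete, measured 11.59 and 10.43 with miR-20a, against 12.78 and 12.66 with miR-NT. Within the miR-20a pair it was 1.16 lower on replicate 2, and within the miR-NT pair 0.11 lower. The GAPDH 5′ control likewise measured 13.17 and 12.30 with miR-20a, against 13.89 and 13.81 with miR-NT. Either signal would also drop with less of the transcript itself, and no 3′ signal is given here to tell these apart. TGFB1 was lower on replicate 2 by similar amounts in both pairs, by 0.21 with miR-20a and by 0.18 with miR-NT, and so was TGFBR2, by 0.19 and 0.22. LTBP3 was 0.22 lower on replicate 2 with miR-20a and 0.04 higher on replicate 2 with miR-NT. ENG was 0.05 higher on replicate 2 with miR-20a and 0.04 higher with miR-NT.

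In a fit with this control as a covariate, which left 1 residual degree of freedom and an SE of 0.25 for each of the 7, TGFB1 was at −0.14, ENG at −0.28 and LTBP1 at 0.34, in their first direction. In that fit TGFB2 was at 0.05, TGFBR2 at 0.18, LTBP3 at 0.04 and LTBP2 at −0.09, on the other side of 0, and limma adjusted p ranged from 0.916 to 0.997. The median of the 7 was then 0.04, with 3 below 0 and 4 above, and that of all tested genes 0.05. The covariate and the group move together on these arrays, and the part of RNA quality in the fold changes was not tested. The plot of fold changes sets these values beside those of the other alternatives.

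**Figure D2:**
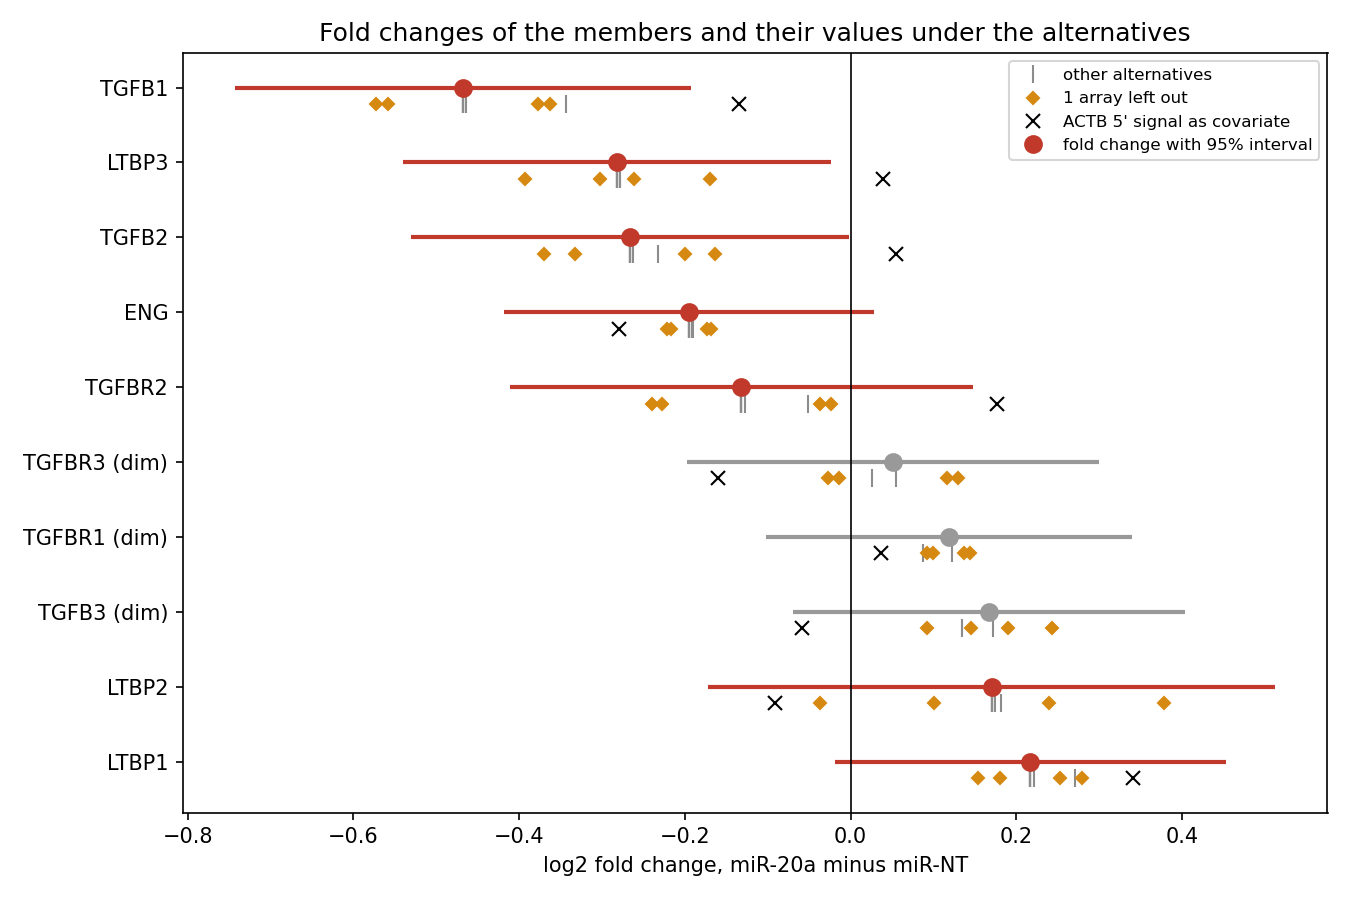
Log2 fold change, miR-20a minus miR-NT (horizontal axis), of the 10 genes, lowest at the top, with 95% limma intervals; grey marks dim genes, whose intervals come from the fit that kept dim genes. Below each, diamonds give the fits with 1 array left out, the cross the fit with the ACTB 5′ covariate, and ticks the other alternatives; TGFB1 runs from −0.57 to −0.14 and stays below 0, and LTBP1 runs from 0.15 to 0.34.

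Fold changes also varied with signal across the arrays. In the brightest decile of all genes, where TGFB1 lies, the median log2 fold change was −0.10 and the interquartile range −0.23 to 0.02. In that decile 44.7% of the genes had both miR-20a arrays below both miR-NT arrays. In the dimmest decile but one, where TGFB3 lies, the median was 0.05 and that share was 18.5%. The decile that holds ENG, LTBP2 and LTBP3 had a median of 0.04 and an interquartile range of −0.12 to 0.14. After quantile normalization, which makes the arrays' distributions equal, TGFB1 was at −0.34, TGFB2 at −0.23, LTBP3 at −0.28, ENG at −0.19, TGFBR2 at −0.05, LTBP1 at 0.27 and LTBP2 at 0.18, and none was called (lowest limma adjusted p = 0.105).

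**Figure D3:**
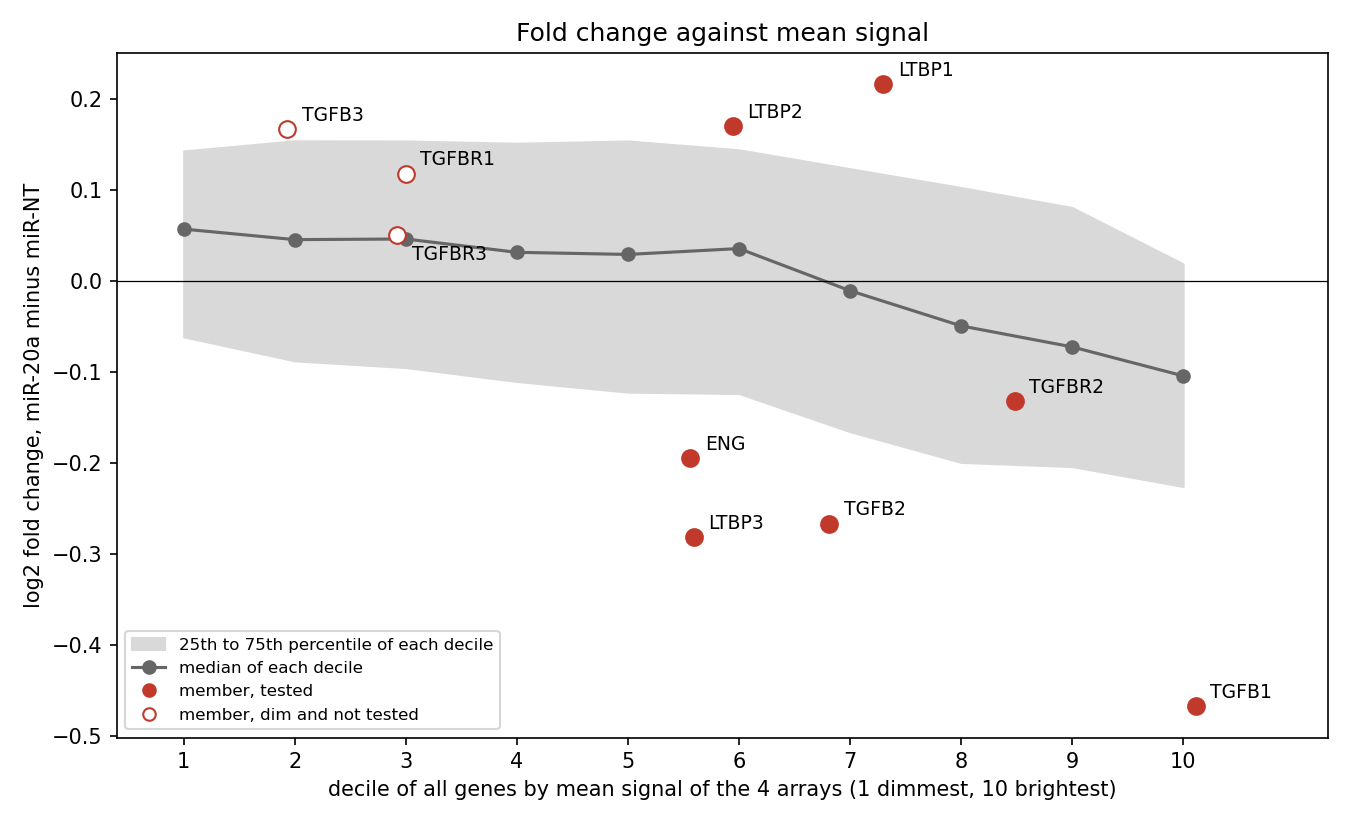
Log2 fold change, miR-20a minus miR-NT (vertical axis), against the decile of all 17716 genes by mean signal (horizontal axis, dimmest at the left). The grey line joins the medians of the deciles, from 0.06 to −0.10, and the band is their interquartile range; TGFB1, TGFB2, ENG and LTBP3 lie below the band, LTBP1 and LTBP2 above it and TGFBR2 inside it, and open circles are dim genes.

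The genes whose 4 values lay nearest to those of TGFB1, after each gene's own mean was subtracted, were ERGIC3 (Euclidean distance 0.03) and CTBP1 (0.03). Those nearest to TGFBR2 were TRAPPC5 (0.02) and AJUBA (0.02). Likeness over 4 arrays among 12401 genes is a description of these arrays only.

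Genes that act on the latent ligand were listed next. Of 22 such genes 21 were measured, 14 were tested and none was called. Their median log2 fold change was −0.12, with 9 below 0 and 5 above. In 8 of the 14 both miR-20a arrays were below both miR-NT arrays and in 4 both were above, where the shares of all tested genes were 31.1% and 25.1%. The 5 genes with the smallest p follow. THBS1, thrombospondin-1, which activates latent TGF-beta, measured 8.40 and 8.32 with miR-20a, against 9.02 and 8.93 with miR-NT (log2 fold change −0.61, SE 0.10; limma adjusted p = 0.0812).

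ITGB1, the shared beta-1 integrin subunit, was at −1.34 (SE 0.22), PLAU, the urokinase protease, at −1.28 (SE 0.26), and the membrane metalloproteinase MMP14 at −0.45 (SE 0.10), with limma adjusted p from 0.0828 to 0.119. ITGB1 and PLAU were lower on miR-20a replicate 2 than on replicate 1, by 0.77 and 0.95. ITGB5, a partner of ITGAV in an integrin that binds latent TGF-beta, was at 0.33 (SE 0.11; limma adjusted p = 0.205). In the fit with the ACTB 5′ covariate THBS1 was at −0.49, MMP14 at −0.53, ITGB1 at −0.20 and PLAU at 0.11.

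Other receptors and co-receptors of the superfamily, which serve activins, bone morphogenetic proteins and related ligands, were below 0 in all 8 tested of 12 measured and 15 listed. Their median log2 fold change was −0.23, none was called, and 6 of the 8 had both miR-20a arrays below both miR-NT arrays, against 31.1% of all tested genes. The co-receptor NRP1 measured 9.73 and 9.28 with miR-20a, against 9.92 and 9.99 with miR-NT (log2 fold change −0.45, SE 0.15; limma adjusted p = 0.201). The others with the smallest p were the co-receptor RGMB (−0.52), the type II receptor BMPR2 (−0.30), the type I receptor ACVR1 (−0.27) and the decoy receptor BAMBI (−0.20), with limma adjusted p from 0.216 to 0.369. Without miR-20a replicate 1, NRP1 was at −0.68 and RGMB at −0.80, and without miR-20a replicate 2 they were at −0.22 and −0.24. In the fit with the ACTB 5′ covariate the list's median was 0.09, with 6 of the 8 above 0. The 4 dim genes of this list had no test. Of these, BMPR1B was higher on both miR-20a arrays, as were 30.5% of all dim genes, with a log2 fold change of 0.57. ACVR1B (−0.16), ACVR1C (−0.04) and ACVR2B (−0.16) were below 0.

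For SMAD proteins and regulators of the receptors, 22 of 25 listed genes were tested and 23 measured. Their median log2 fold change was −0.11, with 14 below 0 and 8 above, and none was called. In 11 of the 22 both miR-20a arrays were below both miR-NT arrays and in 5 both were above. The shares of all tested genes were 31.1% and 25.1%. The first 5 genes named here had the smallest p. FKBP1A, which binds the type I receptor and keeps it from signalling without ligand, measured 8.39 and 7.78 with miR-20a, against 9.38 and 9.16 with miR-NT (log2 fold change −1.19, SE 0.19; limma adjusted p = 0.0812). SMAD3 was at −0.89 (SE 0.17), the kinase MAP3K7 at −0.89 (SE 0.21), the endocytic adaptor DAB2 at −0.43 (SE 0.12) and SMAD4 at −0.51 (SE 0.14), with limma adjusted p from 0.0963 to 0.158. In the fit with the ACTB 5′ covariate FKBP1A was at −0.26, DAB2 at −0.19 and SMAD3 at −0.09, while MAP3K7 (0.18) and SMAD4 (0.07) were above 0. The list's median was 0.02 in that fit and −0.04 after quantile normalization, each with 11 genes below 0 and 11 above. SMAD2, the other substrate of TGFBR1, overlapped between the groups at −0.17 (SE 0.12; limma adjusted p = 0.435), and SMAD7, the inhibitory SMAD induced by the pathway, was at 0.003 (SE 0.10; limma adjusted p = 0.983).

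Of 26 listed genes that TGF-beta is known to induce, 24 were measured and 21 tested. Their median log2 fold change was −0.10, with 14 below 0 and 7 above, and none was called. LTBP2 is one of them. The smallest p belonged to IGFBP3, which binds insulin-like growth factors, at −1.15 (SE 0.15; limma adjusted p = 0.0727), the collagen chain COL4A1 at −0.71, the cross-linking enzyme LOX at −0.56, fibronectin FN1 at −0.41 and tropomyosin TPM1 at −0.85. With the ACTB 5′ covariate IGFBP3 was at −0.54, COL4A1 at −0.18, LOX at −0.28 and FN1 at −0.45, while TPM1 was at 0.42. TPM1 also ranged from −1.28 without miR-20a replicate 1 to −0.43 without miR-20a replicate 2. Tested genes named from the pathway lists were picked by smallest p, thus from these same values. SMAD2 and SMAD7 were added beyond that rule, also after their values were seen. After quantile normalization the list's median was 0.005, with 10 below 0 and 11 above, and with the ACTB 5′ covariate it was 0.07. The lists' medians also depended on the arrays kept. In the order latency genes, other receptors, SMAD list and induced genes, they were −0.10, −0.35, −0.08 and −0.13 without miR-20a replicate 1. Without miR-20a replicate 2 they were −0.18, −0.15, −0.10 and −0.06. They were −0.09, −0.14, −0.07 and −0.05 without miR-NT replicate 1, and −0.15, −0.29, −0.13 and −0.19 without miR-NT replicate 2. Median centring called 1 gene lower in each of the latency, SMAD and induced lists, and 45 lower among all 12401 tested genes. The intensity trend with a robust prior called 1 lower in the induced list, and 23 lower among all tested genes.

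**Figure D4:**
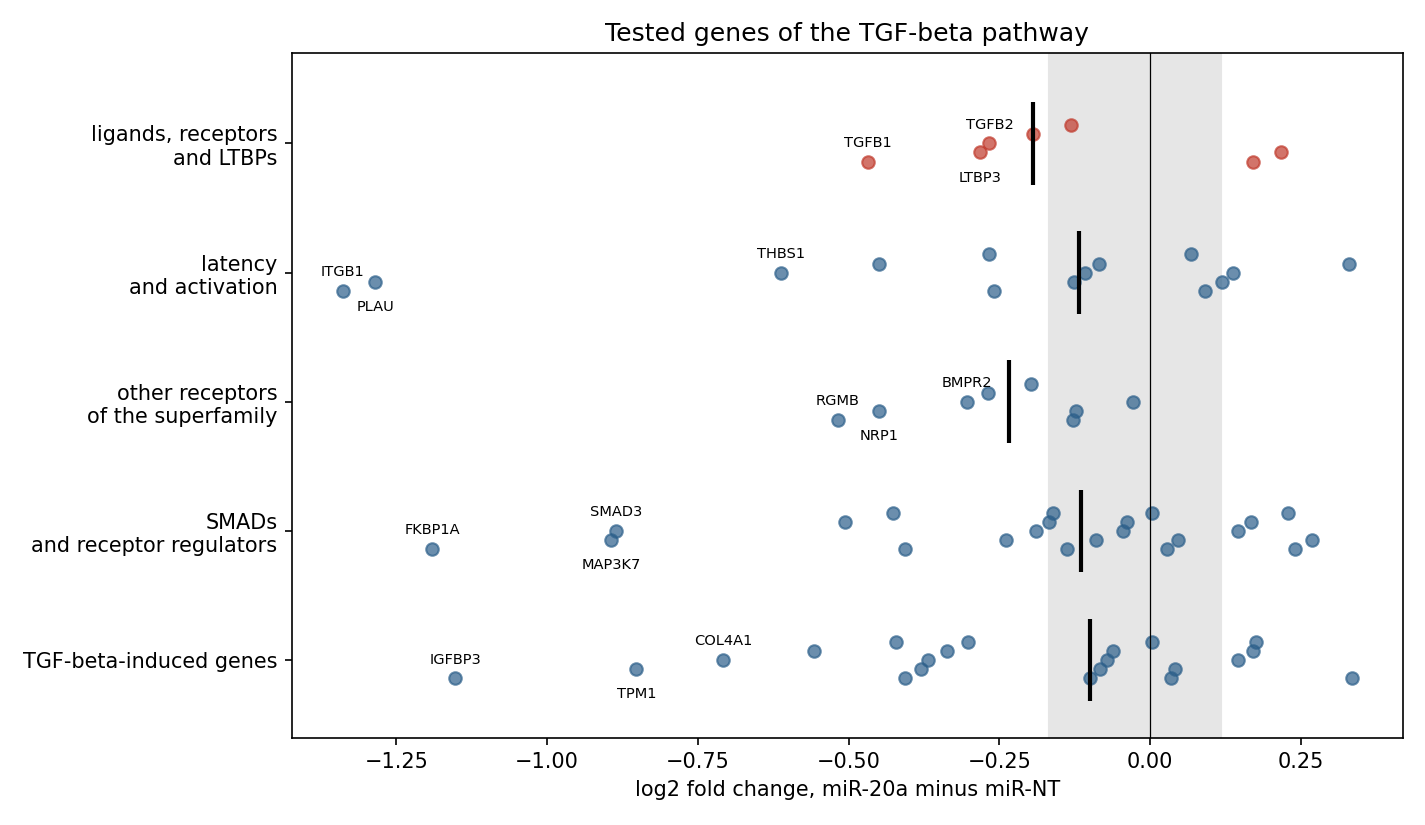
Log2 fold change, miR-20a minus miR-NT (horizontal axis), of the tested genes among the 10 ligands, receptors and binding proteins (top row) and of 4 lists of pathway genes; each point is a gene, black lines are medians, the 3 lowest genes of each row are named, and the grey band is the interquartile range of the 12401 tested genes. Medians run from −0.23 to −0.10, and the lowest gene of each of the 4 lists has a lower fold change than TGFB1.

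QKI, the gene knocked down in both groups, measured 7.52 and 7.08 with miR-20a, against 8.14 and 7.92 with miR-NT, and did not pass (log2 fold change −0.73, SE 0.16; limma adjusted p = 0.106). The line's label was checked on 10 glial markers. VIM and CD44 were bright, at 14.02 to 14.19 and 10.08 to 10.53 with miR-20a and 14.27 to 14.32 and 11.12 to 11.24 with miR-NT. CSPG4 was at 6.10 and 6.20 with miR-20a and 5.92 and 5.66 with miR-NT, and FABP7 at 5.89 and 5.99 with miR-20a and 5.61 and 5.72 with miR-NT. The log2 fold changes of the 6 above the limit were −0.87 for CD44, 0.36 for CSPG4, 0.27 for FABP7, −0.19 for VIM, −0.12 for SOX2 and −0.08 for CNP, none of them called (limma adjusted p from 0.0949 to 0.677). GFAP, OLIG2, S100B and NES were dim. Of 7 immune markers measured, PTPRC, CD14, CSF1R and TYROBP were dim. CD3E, AIF1 and ITGAM were above the limit, with log2 fold changes of 0.28, 0.20 and 0.07 that did not pass (limma adjusted p = 0.215, 0.327 and 0.733). The mean level of the 7 was 5.59 and 5.68 with miR-20a and 5.54 and 5.60 with miR-NT.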

How the data were processed

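The deposited values are log2 probe set signals, as their range shows. The R package affy was used, per the submitters' processing notes; its version is not given in the sources used here, nor are background correction, summarisation and normalization. Groups came from the source names and replicate numbers from the titles. Nothing in the labels tells separate cultures from repeat arrays, so the p-values reflect the spread between arrays only, possibly a technical one, and 2 arrays per group limit the precision.

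Of 20323 probe sets 18060 had 1 gene symbol, 886 several and 1375 none; symbols were updated through the RefSeq gene table (18034 matched). Control probe sets were left out of the tests. The probe set with the highest mean stood for each gene, and the dimmest 30% of genes (5315) were left out. The main test was limma 3.58.1 (R 4.3.3; lmFit and eBayes, two-sided, no covariate) with Benjamini-Hochberg adjustment over 12401 genes, with 2 residual and 5.53 prior degrees of freedom. SEs and 95% intervals are moderated ones from this fit. No exact permutation test was run on 2 arrays against 2. The test was checked on simulated arrays.

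Named genes were the 10 genes, QKI, up to 5 genes of each pathway list with the smallest p, and the genes nearest to TGFB1 and TGFBR2 by Euclidean distance, of which 2 each are named. SMAD2, SMAD7, the dim genes among the other receptors and the cell type markers are named beyond this rule. The members and lists were chosen with earlier results of these data known. Alternatives were quantile normalization, median centring, other limits for dim genes, an intensity trend with a robust prior, other rules for probe sets, the replicate number as a block, an ACTB 5′ covariate and leaving out each array.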

Additional observations from a re-analysis of the deposited data

How the results depend on the processing

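In the alternatives that kept all 4 arrays, none of the 7 tested genes was called. Fits with 1 array left out leave 1 array in 1 group, and calls of the 7 genes from them are not read here. The signs of TGFB1, ENG and LTBP1 held in all 13 alternatives, though not all of these could change them. Other limits for dim genes, the intensity trend, the replicate block and other probe set rules leave the fold change of each tested member as it was. With the ACTB 5′ covariate TGFB2 (0.0549), TGFBR2 (0.177), LTBP2 (−0.0909) and LTBP3 (0.0397) changed sign, as did LTBP2 without miR-NT replicate 1 (−0.0368, in a range of −0.0368 to 0.378 over the fits with 1 array left out). Of the dim genes, TGFB3 was at −0.06 and TGFBR3 at −0.16 with that covariate, and TGFBR3 was at −0.03 without miR-20a replicate 2 and at −0.014 without miR-NT replicate 2. The cause of these changes was not tested. Over all genes, 0 were called higher and 1 lower. These counts were 0 and 5 after quantile normalization, 2 and 45 after median centring, 0 and 4 with the dimmest 50% left out, 1 and 23 with an intensity trend and a robust prior, and 1 and 5 with the ACTB 5′ covariate. They ranged from 0 to 302 higher and from 0 to 1567 lower with 1 array left out. With the replicate number as a block 0 genes were called in either direction by limma, with 1024 higher and 2127 lower at an unadjusted p under 0.05; deviations of same-numbered arrays from their group means correlated at 0.267 across genes, and with 2 pairs and no such statement in the labels the numbers were not taken to pair the samples. That block left the members' fold changes as they were and called none of them (limma adjusted p from 0.139 to 0.318). Quantile normalization moved the median fold change of all tested genes from −0.02 to 0.03. Low signal limits TGFB3, TGFBR1 and TGFBR3.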
